A study of Mus musculus with 12 samples.

Results

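The circadian clock genes measured here are Dbp, Tef, Per1, Per2, Per3, Cry1, Cry2, Nr1d1, Nr1d2 and Clock, which make 10 of the 19938 genes that have a probe set of their own among the 35511 probe sets of the array. Each was represented by the probe set that carries its symbol alone and has the highest mean over the arrays, and each of the 10 genes had exactly 1 such probe set. RNA of collagenase-isolated islets was hybridised to 12 Affymetrix MoGene_1.0_ST arrays, 3 for each of 4 groups of 129Sv mice. The groups were P9.5 (day 9.5 of pregnancy) Prlr-/-, P9.5 Prlr+/+, non-pregnant (NP) Prlr-/- and NP Prlr+/+ mice, where Prlr-/- mice lack the prolactin receptor throughout the body. The question was whether clock gene mRNA differed between the stages or the genotypes. A further question was whether the genes moved together in a way that a change of clock phase could move them.

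The study's methods describe mice several months old, and only the pregnant Prlr-/- mice received a progesterone pellet, so that pellet and genotype cannot be told apart at P9.5. Within Prlr-/- islets pellet and stage cannot be told apart either, which reaches the average over the genotypes and the interaction as well. The hour at which islets were isolated is not given in the sources used here, and the part of time of day in any difference below was not tested. The labels call the 3 arrays of a group biological replicates without saying how many animals each holds, so the p-values measure the spread between these arrays. No probe set used here carries the symbol Prlr, so the genotype labels were not checked on the targeted gene.

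The mammalian clock is a feedback loop of transcription that runs in nearly every cell, beta cells included. The activators CLOCK and BMAL1 (encoded by Arntl) bind E-boxes and switch on the Per and Cry genes, whose proteins enter the nucleus and block these activators. CLOCK and BMAL1 also switch on Nr1d1 and Nr1d2, which encode the repressors REV-ERB alpha and beta of Arntl, and Dbp and Tef, which encode PAR bZIP activators acting through D-boxes. Genes driven mainly by E-boxes and D-boxes therefore peak at another time of day than Arntl, Nfil3 and Cry1.

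Values are log2 expression from robust multichip analysis, deposited in steps of 0.1, and the 10 genes lay between 6.2 and 9.9 on all arrays. A gene was called when its Benjamini-Hochberg adjusted p from limma over all probe sets was under 0.05 and its fold change was at least 1.5. Across probe sets, r was 0.972 to 0.988 between arrays that share a stage (30 pairs) and 0.931 to 0.969 between those that do not (36 pairs). The mean of 8 islet markers was 11.50 to 11.80 on every array, whereas the mean of 11 acinar (exocrine) markers was 8.65 to 10.01 in P9.5 Prlr-/-, 8.99 to 9.97 in P9.5 Prlr+/+, 10 to 10.77 in NP Prlr-/- and 9.71 to 10.15 in NP Prlr+/+ islets. Among the islet markers, Nkx6-1, a beta cell transcription factor, was called lower at P9.5 in Prlr+/+ islets (log2 fold change -0.73, adjusted p = 0.00369), and Sst, which encodes somatostatin, differed by -0.33 there, short of the fold minimum (adjusted p = 0.0248). In Prlr-/- islets Nkx6-1 differed by -0.37 (adjusted p = 0.0591) with overlapping groups, and the part of these genes in the clock gene differences was not tested. In Prlr+/+ P9.5 replicate 2, Xist was at 3.8 against 10 to 10.7 on the other 11 arrays, while the 3 Y-linked genes measured were at 3.1 to 4.6 on all 12. Islets hold several cell types, and fewer cells of a type cannot be told apart from less RNA per cell.

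The promoters of the genes called in the comparisons below show which clock elements lie next to their start. Each line gives the 250 bases before the RefSeq start on build GRCm38.p6, read from 5′ to 3′ on the gene's own strand. Capitals mark an E-box (CACGTG), an E-prime box (CACGTT, or AACGTG on the other strand) or a D-box (TTATGNAA, or TTNCATAA). They also mark a ROR half-site (AGGTCA, or TGACCT), the core of the sequence that REV-ERB and ROR receptors read. Bases beside this core were not part of the search.
Per1, chr11:69098699-69098948, plus strand: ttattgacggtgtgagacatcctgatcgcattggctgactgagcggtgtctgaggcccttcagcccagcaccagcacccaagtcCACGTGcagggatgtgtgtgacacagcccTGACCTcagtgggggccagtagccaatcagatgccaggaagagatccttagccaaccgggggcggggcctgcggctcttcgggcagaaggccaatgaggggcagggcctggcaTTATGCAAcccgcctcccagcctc
Cry1, chr10:85185055-85185304, minus strand: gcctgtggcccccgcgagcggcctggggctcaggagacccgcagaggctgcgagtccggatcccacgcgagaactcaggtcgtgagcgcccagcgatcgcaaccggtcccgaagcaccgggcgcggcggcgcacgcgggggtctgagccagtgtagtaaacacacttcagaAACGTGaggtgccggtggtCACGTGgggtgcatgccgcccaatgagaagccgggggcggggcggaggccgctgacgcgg
Cry2, chr2:92434070-92434319, minus strand: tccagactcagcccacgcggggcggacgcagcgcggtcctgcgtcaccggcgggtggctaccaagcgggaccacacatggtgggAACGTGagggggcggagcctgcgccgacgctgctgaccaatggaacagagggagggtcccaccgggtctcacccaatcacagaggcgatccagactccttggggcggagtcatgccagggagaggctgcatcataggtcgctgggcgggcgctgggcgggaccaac
Nr1d1, chr11:98775378-98775627, minus strand: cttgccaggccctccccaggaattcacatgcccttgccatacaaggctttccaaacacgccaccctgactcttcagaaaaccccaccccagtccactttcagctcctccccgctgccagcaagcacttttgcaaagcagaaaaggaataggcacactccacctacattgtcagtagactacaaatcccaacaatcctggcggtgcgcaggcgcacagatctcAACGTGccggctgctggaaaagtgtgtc

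The Per1 window shown held an E-box starting 166 bases before the start, a ROR half-site at 137 and a D-box at 24. It is the window with more motifs of the pair listed for Per1, and the other, chr11:69099902-69100151, held none of them. The Cry1 window held an E-prime box at 79 and an E-box at 60 bases before the start, while the Cry2 and Nr1d1 windows held a single E-prime box each, at 166 and 28. Windows were found for 9 of the 10 genes, all but Per2. Among these 9, 3 held an E-box, 3 an E-prime box, 2 a D-box and 3 a ROR half-site in any of their windows. Counted the same way over all 27025 genes with windows of that length, 6.86% held an E-box, 4.5% an E-prime box, 3.63% a D-box and 15.8% a ROR half-site, on either strand. No motifs overlapped each other in the windows of the clock genes. The windows of Dbp, Arntl and Hlf held none of these motifs, and that of Nr1d2 held only a ROR half-site. A match of letters is a description and not a bound site, and a window without a match does not show that a gene lacks the element.

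**Figure D1:**
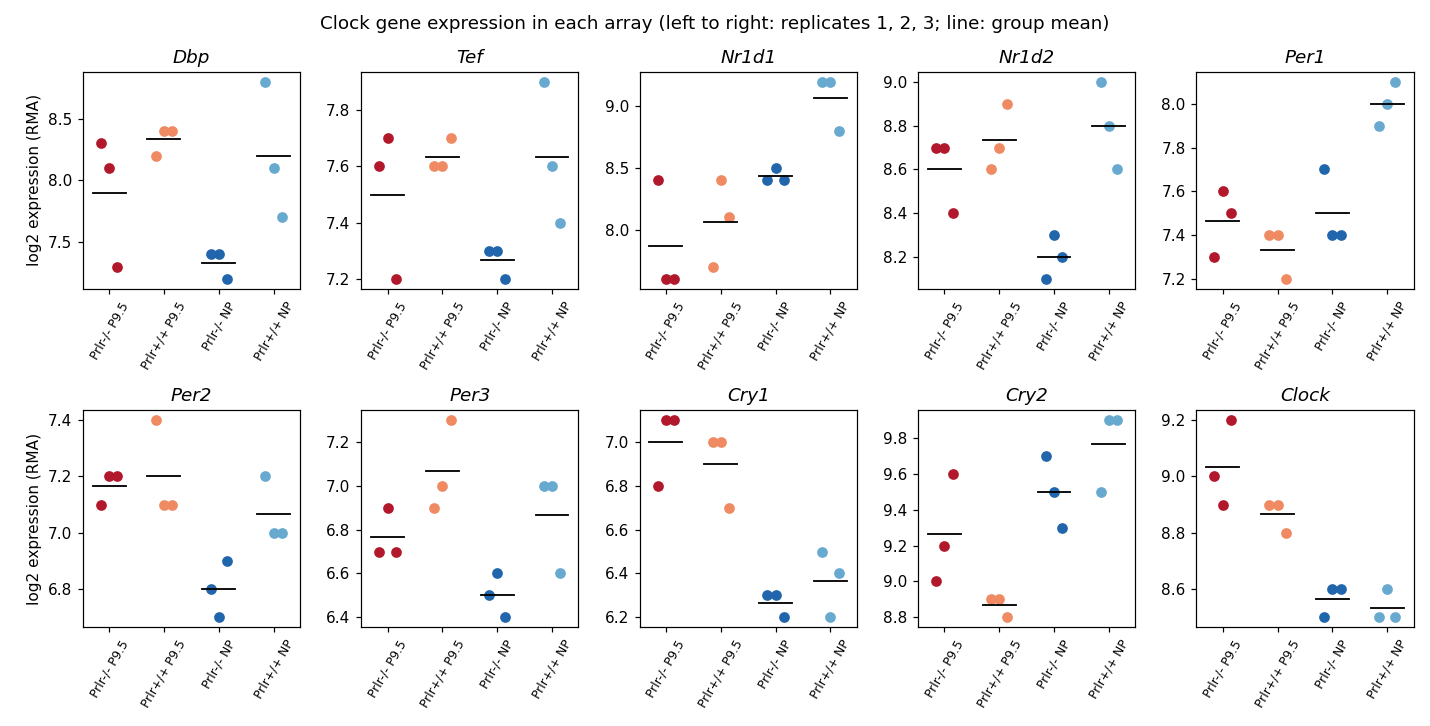
Log2 expression (RMA) of the 10 clock genes on each array, with a line at the mean of the 3 arrays of a group. Cry1 and Clock were higher on all P9.5 arrays than on any NP array, with Cry1 at 6.7 or above at P9.5 and at 6.5 or below in NP islets.

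Pregnancy went with higher Cry1 and lower Nr1d1 mRNA when both genotypes were averaged. Cry1, which encodes a repressor of CLOCK and BMAL1, was 1.55-fold higher at P9.5 (log2 fold change 0.63, standard error 0.087, adjusted p = 0.000174). Nr1d1, which encodes REV-ERB alpha, was 1.72-fold lower (log2 fold change -0.78, standard error 0.159, adjusted p = 0.00215). These were 2 of the 10 clock genes, against 11.6% of all probe sets called. Without the fold minimum, 6 of 10 passed the adjusted p, against 45.5% of all probe sets. The 4 further genes were Clock (0.40), Per2 (0.25), Per1 (-0.35) and Cry2 (-0.57).

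Within Prlr-/- islets, Cry1 alone was called between the stages, where 14.5% of all probe sets were called and 7.44% were called higher. Within Prlr+/+ islets 3 of 10 clock genes were called, all lower at P9.5, where 9.93% of all probe sets were called and 4.21% were called lower. They were Per1, Cry2 and Nr1d1. Without Prlr-/- P9.5 replicate 1 or 3, 2 clock genes were called in Prlr-/- islets, Cry1 with Nr1d1 or with Dbp. The comparisons of stage in the 2 genotypes share no arrays in their group means. Their p-values do share arrays, as limma estimated the spread of each probe set from all 12.

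**Figure D2:**
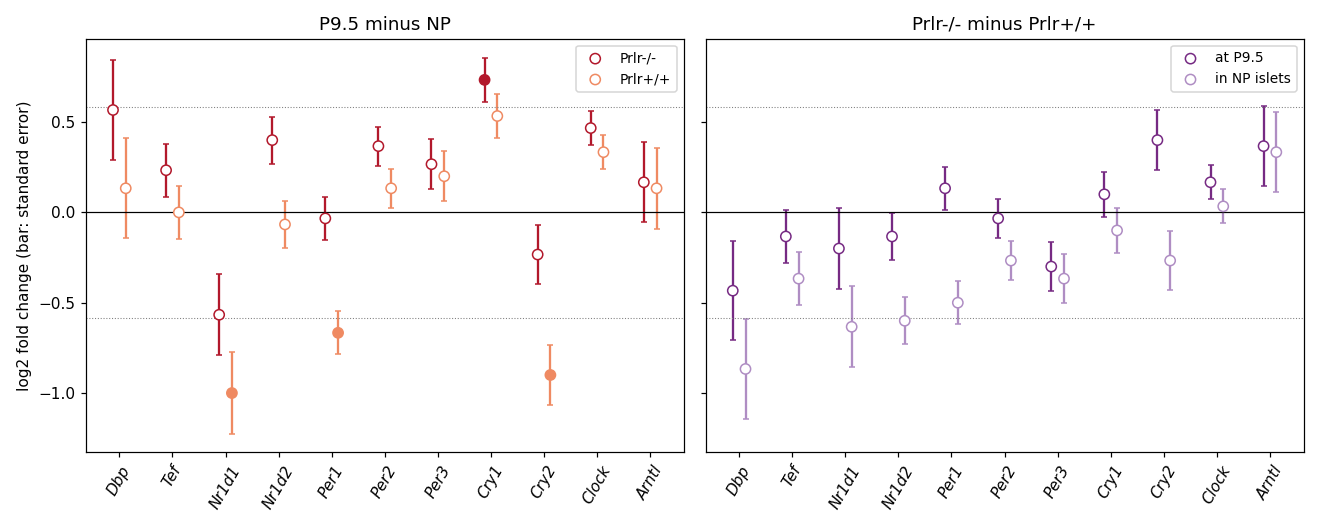
Log2 fold changes with standard errors from limma for the 10 clock genes and Arntl, P9.5 minus NP in each genotype (left) and Prlr-/- minus Prlr+/+ at each stage (right). Filled points were called and dotted lines mark the fold minimum of 1.5. Cry1 was called in Prlr-/-, and Nr1d1, Per1 and Cry2 in Prlr+/+ islets.

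Of the repressors, Cry1 separated the stages in both genotypes. In Prlr-/- islets Cry1 was at 6.8, 7.1 and 7.1 at P9.5, against 6.3, 6.3 and 6.2 in NP mice. Cry1 in Prlr+/+ islets was at 7.0, 7.0 and 6.7 at P9.5, against 6.5, 6.2 and 6.4 in NP mice. Stages did not overlap in either genotype, whereas the genotypes overlapped at both stages. The difference was 0.73 in Prlr-/- (standard error 0.123, adjusted p = 0.00127) and 0.53 in Prlr+/+ islets (standard error 0.123, adjusted p = 0.0102), the second short of the fold minimum. In Prlr+/+ islets Cry1 was called when P9.5 replicate 3 or NP replicate 1 was left out, with a log2 fold change of up to 0.63. Across all 35511 probe sets, 10.8% lay above without overlap in both genotypes at P9.5, as did Cry1 and Clock of the 10 clock genes. The share of probe sets whose stages lie apart within a single genotype is not given here. Lack of overlap within a single genotype below therefore does not mark a gene out.

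Cry2, the second cryptochrome gene, ran the other way. It was at 9.0, 9.2 and 9.6 in P9.5 Prlr-/- islets, against 9.7, 9.5 and 9.3 in NP Prlr-/- islets, with overlap. Prlr+/+ islets had Cry2 at 8.9, 8.9 and 8.8 at P9.5, against 9.5, 9.9 and 9.9 in NP mice, with no overlap. The log2 fold change was -0.90 in Prlr+/+ (standard error 0.164, adjusted p = 0.00321) and -0.23 in Prlr-/- islets (standard error 0.164, adjusted p = 0.29). The pregnancy effects differed by 0.67 between the genotypes (standard error 0.232), and this interaction did not pass (adjusted p = 0.385). Averaged over the genotypes, the fold change of 1.48 lay just short of the minimum, and Cry2 was called when Prlr-/- P9.5 replicate 3, Prlr-/- NP replicate 3 or Prlr+/+ NP replicate 1 was left out (log2 fold change down to -0.65).

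Per1, a repressor gene that also answers quickly to hormones and activity, stood out in a single group. Per1 was at 7.3, 7.6 and 7.5 in P9.5 Prlr-/- islets, against 7.7, 7.4 and 7.4 in NP Prlr-/- islets. The Prlr+/+ values were 7.4, 7.4 and 7.2 at P9.5, against 7.9, 8.0 and 8.1 in NP mice. The 3 NP Prlr+/+ arrays lay above the other 9. The log2 fold change with pregnancy was -0.67 in Prlr+/+ (standard error 0.118, adjusted p = 0.00275) and -0.033 in Prlr-/- islets (standard error 0.118, adjusted p = 0.843). Their difference, 0.63, had an adjusted p of 0.26.

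Per2 and Per3, the other period genes, were not called in any comparison. Per2 was at 7.1, 7.2 and 7.2 in P9.5 Prlr-/- islets, against 6.8, 6.7 and 6.9 in NP Prlr-/- islets, a difference of 0.37 without overlap (adjusted p = 0.0228) that was short of the fold minimum. In Prlr+/+ islets Per2 differed by 0.13 between the stages, with overlap (adjusted p = 0.405). Per3 differed by 0.27 in Prlr-/- (adjusted p = 0.154) and by 0.20 in Prlr+/+ islets (adjusted p = 0.324).

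Clock, the activator gene of the group, had the smallest spread within groups of the 10 genes (within-group SD 0.0913). It was at 9.0, 8.9 and 9.2 in P9.5 Prlr-/- islets, against 8.5, 8.6 and 8.6 in NP Prlr-/- islets. In Prlr+/+ islets it was at 8.9, 8.9 and 8.8 at P9.5, against 8.5, 8.6 and 8.5 in NP mice. All P9.5 arrays lay above all NP arrays, as did 9.41% of all probe sets. The log2 fold change was 0.47 in Prlr-/- (adjusted p = 0.00364) and 0.33 in Prlr+/+ islets (adjusted p = 0.0273), both short of the fold minimum. In Prlr-/- islets Clock was called after median centring (0.63, adjusted p = 0.00141), and in Prlr+/+ islets its adjusted p came to 0.103 after quantile normalization.

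Arntl, which encodes the partner of CLOCK, did not separate the stages. It was at 6.9, 6.6 and 7.4 in P9.5 Prlr-/- islets, against 7.0, 6.7 and 6.7 in NP Prlr-/- islets. Prlr+/+ islets had Arntl at 6.4, 6.9 and 6.5 at P9.5, against 6.1, 6.5 and 6.8 in NP mice. The groups overlapped, with log2 fold changes of 0.17 (adjusted p = 0.587) and 0.13 (adjusted p = 0.701). Both signs turned when single arrays were left out.

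Among the REV-ERB genes, Nr1d1 was lower at P9.5 in Prlr+/+ islets. It was at 7.7, 8.4 and 8.1 at P9.5, against 9.2, 9.2 and 8.8 in NP Prlr+/+ mice, with no overlap. In Prlr-/- islets it was at 8.4, 7.6 and 7.6 at P9.5, against 8.4, 8.5 and 8.4 in NP mice, where replicate 1 of P9.5 reached the NP level. The log2 fold change was -1 in Prlr+/+ (standard error 0.224, adjusted p = 0.00894) and -0.57 in Prlr-/- islets (standard error 0.224, adjusted p = 0.0712). Without Prlr-/- P9.5 replicate 1 it was called in Prlr-/- islets too (-0.83, adjusted p = 0.0108). The interaction for Nr1d1 was 0.43 (adjusted p = 0.694).

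Nr1d2, which encodes REV-ERB beta, did not follow Nr1d1. It was at 8.7, 8.7 and 8.4 in P9.5 Prlr-/- islets, against 8.1, 8.3 and 8.2 in NP Prlr-/- islets. The Prlr+/+ values were 8.6, 8.7 and 8.9 at P9.5, against 9.0, 8.8 and 8.6 in NP mice. Stages lay apart in Prlr-/- islets (0.40, adjusted p = 0.0349, short of the fold minimum) and overlapped in Prlr+/+ islets (-0.067, adjusted p = 0.744). The NP Prlr-/- arrays lay below the other 9.

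Dbp and Tef, the PAR bZIP outputs of the clock, were not called between the stages. Dbp was at 8.3, 8.1 and 7.3 in P9.5 Prlr-/- islets, against 7.4, 7.4 and 7.2 in NP Prlr-/- islets. In Prlr+/+ islets it was at 8.2, 8.4 and 8.4 at P9.5, against 8.8, 8.1 and 7.7 in NP mice. Dbp had the largest within-group SD of the 10 genes (0.393), and the stages overlapped in both genotypes. The log2 fold change in Prlr-/- islets was 0.57 (standard error 0.276, adjusted p = 0.132), and it was called without P9.5 replicate 3 (0.87, adjusted p = 0.0306). In Prlr+/+ islets it was 0.13 (adjusted p = 0.759). Tef was at 7.6, 7.7 and 7.2 in P9.5 Prlr-/- islets, against 7.3, 7.3 and 7.2 in NP Prlr-/- islets, and averaged 7.63 in both Prlr+/+ groups.

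Beyond these 10 genes, 12 of 15 other clock genes were measured, and none was called by limma in any of the 6 comparisons. At an unadjusted p under 0.05, 3 were higher and 1 lower at P9.5 in Prlr-/- islets, where 44.9% of all probe sets passed this threshold, and 2 were higher and 2 lower in Prlr+/+ islets (35.9% of all probe sets). For the mean of the genotypes 5 were higher and 2 lower (53.7%). Between the genotypes 1 was higher and 1 lower at P9.5 (5.42%), 1 was lower in NP islets (12.3%), and 0 reached it for the interaction (9.85%). Their median log2 fold change was 0.18 in Prlr-/- and 0.17 in Prlr+/+ islets, against 0.32 and 0.067 for the 10 clock genes and -0.067 for all probe sets in both genotypes. At P9.5 against NP, Hlf, the third PAR bZIP gene, differed by 0.47 in Prlr-/- islets (adjusted p = 0.00785) and by 0.20 in Prlr+/+ islets (adjusted p = 0.215).

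Of 4 measured clock output genes, Nampt and Wee1 were called higher at P9.5 in Prlr-/- islets. Among all probe sets, 7.44% were called higher there. Nampt, which encodes an enzyme of NAD synthesis, was at 8.0, 7.7 and 8.0 at P9.5, against 6.9, 6.9 and 7.0 in NP Prlr-/- islets (0.97, adjusted p = 0.000392). Wee1, which encodes a kinase that holds back mitosis, differed by 0.70 (adjusted p = 0.00143). In Prlr+/+ islets the differences were 0.57 for Nampt (adjusted p = 0.0107) and 0.47 for Wee1 (adjusted p = 0.0171), both short of the fold minimum. Both genes lay above NP without overlap in both genotypes, as did 10.8% of all probe sets. Tspan4 and Usp2 were not called in Prlr-/- islets, with differences of -0.37 for Tspan4 (adjusted p = 0.0985) and -0.13 for Usp2 (adjusted p = 0.324). In Prlr+/+ islets they differed by -0.30 each (adjusted p = 0.204 for Tspan4 and 0.053 for Usp2). Nampt in Prlr+/+ islets was called without P9.5 replicate 3 or NP replicate 1, with a log2 fold change of up to 0.72.

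Some genes of other lists were called between the stages as well, and their part in the clock gene differences was not tested. Of all probe sets, 7.44% were called higher and 7.09% lower at P9.5 in Prlr-/- islets, and 5.73% higher and 4.21% lower in Prlr+/+ islets. Glucocorticoids can act on Per1 directly, and of 6 of their targets Fkbp5 and Zbtb16 were called lower at P9.5 in both genotypes, while the other 4 were not called. Zbtb16, the more changed of the pair, was at 6.2, 6.3 and 6.4 in P9.5 Prlr-/- islets, against 7.8, 7.7 and 7.6 in NP Prlr-/- islets (log2 fold change -1.4, adjusted p = 0.00249), and its log2 fold change in Prlr+/+ islets was -1.5 (adjusted p = 0.00275). In NP Prlr+/+ islets replicate 1 lay low for Zbtb16 (6.7, against 8.0 and 7.9) and for Fkbp5 (9.0, against 9.9 and 9.8). Both genes stayed called in each genotype when any single array was left out. Of 9 immediate early genes, which respond to stress within minutes, Jun alone was called, and it was higher in Prlr-/- (0.83, adjusted p = 0.03) and in Prlr+/+ islets (0.90, adjusted p = 0.0301). Jun did not pass in Prlr-/- islets when P9.5 replicate 2 or any of the 3 NP arrays was left out (0.57 to 0.87), nor in Prlr+/+ islets when P9.5 replicate 1 or 2 or NP replicate 2 or 3 was (0.63 to 0.92). Fos was at 8.0 and 7.8 in replicate 2 of P9.5 Prlr-/- and Prlr+/+ islets, against at most 6.5 on the other arrays. Of 11 acinar markers, 9 were called lower and 1 higher at P9.5 in Prlr-/- islets, and 0 lower and 1 higher in Prlr+/+ islets. In each genotype 10 of 11 had a log2 fold change below 0, with a median of -1.43 in Prlr-/- and -0.63 in Prlr+/+ islets.

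Ductal, endothelial and immune markers also included genes called between the stages, and the part of any cell type marker was not tested. All 5 ductal markers had a log2 fold change below 0 in both genotypes, and the mean of the 5 was 6.02 to 6.16 in P9.5 Prlr-/- against 6.34 to 6.62 in NP Prlr-/- islets, and 5.96 to 6.02 in P9.5 Prlr+/+ against 6.32 to 6.38 in NP Prlr+/+ islets, without overlap. Among them, Muc1 was called lower in Prlr-/- (-0.90, adjusted p = 0.00104) and Krt7 in Prlr+/+ islets (-0.80, adjusted p = 0.00335). Of 9 endothelial markers, Tek (0.63, adjusted p = 0.00733) and Emcn (0.77, adjusted p = 0.0022) were called higher in Prlr-/- islets, and Plvap was called lower in Prlr+/+ islets (-0.67, adjusted p = 0.00296). Of 9 immune markers, Cd74 alone was called, lower in Prlr+/+ islets (-0.77). It differed by -0.50 in Prlr-/- islets, short of the fold minimum (adjusted p = 0.03). No stromal marker was called, with a median log2 fold change of 0.017 in Prlr-/- and -0.32 in Prlr+/+ islets.

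Between the genotypes no clock gene was called at either stage, where 0.231% of all probe sets were called at P9.5 and 0.101% in NP islets. In NP islets, 9 of 10 clock genes had a fitted level below that of Prlr+/+ islets, against 43.6% of all probe sets. An unadjusted p under 0.05 was reached by 7 of these (Dbp, Tef, Per1, Per2, Per3, Nr1d1 and Nr1d2), against 5.19% of all probe sets that were lower at this threshold. The Prlr-/- arrays lay below the Prlr+/+ arrays without overlap for 6 of 10, against 5.22% of all probe sets. The 10 genes are linked in 1 loop and were read on the same arrays, so they are not independent of each other.

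The largest differences in NP islets were those of Dbp (log2 fold change -0.87, standard error 0.276, adjusted p = 0.248), Nr1d1 (-0.63, adjusted p = 0.283) and Nr1d2 (-0.60, standard error 0.131, adjusted p = 0.123). Per1 followed at -0.50 (standard error 0.118, adjusted p = 0.146). Clock differed by 0.033 and Arntl by 0.33 (adjusted p = 0.582), the arrays of the genotypes overlapping for both. The NP Prlr+/+ arrays were spread, with Dbp at 8.8, 8.1 and 7.7, and without replicate 1 of that group 4 of 10 clock genes passed that unadjusted threshold (5.47% of all probe sets). Endothelial markers had lower means in these Prlr-/- islets as well, at 7.54 to 7.63 against 7.77 to 7.87 in NP Prlr+/+ islets. All 8 stromal markers had a log2 fold change below 0 (median -0.30). Of 11 acinar markers, 9 were above 0 and 1 below (median 0.50). None of these markers was called, and their part in the difference was not tested.

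At P9.5, 1 of 10 clock genes, Cry2, reached an unadjusted p under 0.05 in limma (0.0321, adjusted p = 0.848), against 2.79% of all probe sets that were higher at this threshold. All 3 Prlr-/- arrays lay above the Prlr+/+ arrays for Cry2, as they did for 3.16% of all probe sets, and the difference was 0.40. The pregnancy effect was above that of Prlr+/+ islets in Prlr-/- islets for 10 of 10 clock genes, against 45.2% of all probe sets. No interaction was called by limma (0.0788% of all probe sets), and 3 of 10 reached an unadjusted p under 0.05, namely Per1, Cry2 and Nr1d2, against 4.26% of all probe sets above 0 at this threshold. Endothelial markers had a median interaction of 0.43, with 8 of 9 above 0 and 5 of 9 at an unadjusted p under 0.05, and stromal markers a median of 0.35, with 7 of 8 above 0, against a median of 0.33 for the clock genes. The part of these markers in the interaction was not tested. Each interaction contains the difference of the NP groups, so its sign is not separate from the lower NP Prlr-/- levels.

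**Figure D3:**
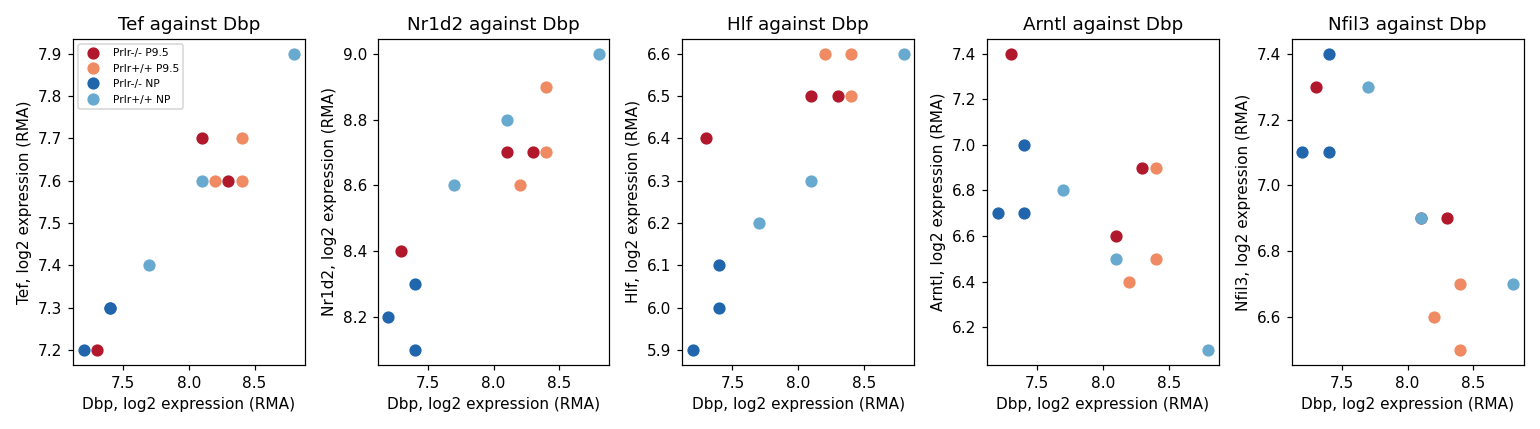
Log2 expression of Tef, Nr1d2, Hlf, Arntl and Nfil3 against Dbp, 1 point per array, coloured by group. Tef and Nr1d2 were high where Dbp was high (r = 0.97 and 0.91 over 12 arrays), and Nfil3 was low there (r = -0.83). Points with equal values overlie each other.

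Across the 12 arrays, some clock genes followed Dbp and others did not. Pearson's r with Dbp was 0.97 for Tef (Spearman's rho 0.90), 0.91 for Nr1d2 (rho 0.86), 0.84 for Hlf (rho 0.85) and 0.81 for Per3 (rho 0.83). It was -0.83 for Nfil3 (rho -0.83), whose protein competes with DBP for D-boxes, and -0.63 for Arntl (rho -0.49). Clock (r = 0.079), Per1 (r = 0.02) and Nr1d1 (r = 0.23) did not follow Dbp over the arrays. Without the 2 arrays farthest from the median of Dbp, Prlr-/- P9.5 replicate 3 and Prlr-/- NP replicate 3, r was 0.95 for Tef, -0.83 for Nfil3 and -0.60 for Arntl.

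Part of this likeness lay inside the groups. Over the deviations from the group means, r with Dbp was 0.95 for Tef, 0.85 for Nr1d2, 0.79 for Hlf, -0.80 for Nfil3, -0.77 for Cry2 and -0.71 for Arntl. Of the genes named above, Nr1d1 had r = 0.61, Per3 0.54, Clock -0.57 and Per1 -0.38 by this measure. Without the 2 arrays farthest from the median deviation of Dbp, Prlr-/- P9.5 replicate 3 and Prlr+/+ NP replicate 3, r was 0.88 for Tef, -0.53 for Nfil3 and -0.39 for Arntl. For Nr1d1 it was then 0.45, for Per3 0.30 and for Clock -0.49. These values are descriptions, since the 3 deviations of a group sum to 0 and all points share the normalization of the arrays. Prlr-/- P9.5 replicate 3 combined the lowest Dbp of its group (7.3) with the highest Arntl of all 12 arrays (7.4), and Prlr+/+ NP replicate 1 the highest Dbp (8.8) with the lowest Arntl (6.1).

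Outside the 10 clock genes, the genes most like Dbp over the 12 arrays, of 9680 compared, were Laptm5 (r = 0.87), Tmem117 (0.87), Aqp7 (0.86), Cd72 (0.86) and Hlf (0.84). The most opposed were Mdm1 (-0.86), A930024E05Rik (-0.84) and Fuz (-0.84). Over the deviations from the group means, of 2897 genes compared, they were Olfr1095 (0.92), Arxes1 (0.91), Ccin (0.90), Olfr1487 (0.90) and Gpr119 (0.89), with Rian (-0.93), Nktr (-0.91) and Mdm1 (-0.90) at the other end. Mdm1 was named by both measures.

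**Figure D4:**
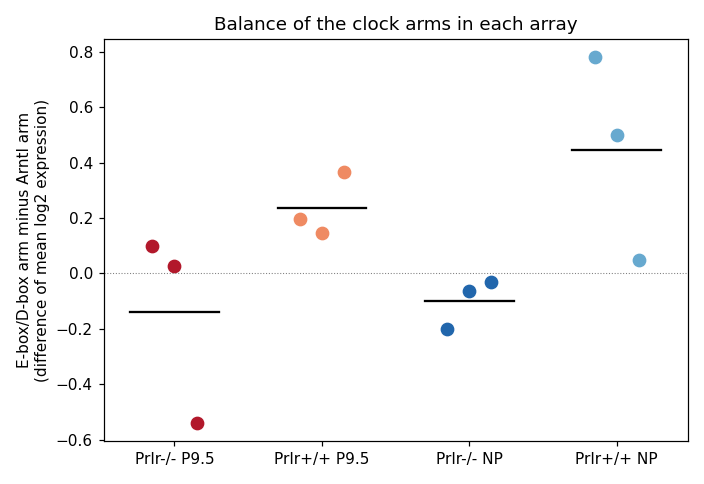
Mean log2 expression of 10 E-box and D-box genes minus that of 4 genes of the Arntl arm, 1 point per array, with a line at the group mean. The stages overlap within each genotype, between -0.54 and 0.10 in P9.5 Prlr-/-, 0.145 and 0.365 in P9.5 Prlr+/+, -0.20 and -0.03 in NP Prlr-/-, and 0.05 and 0.78 in NP Prlr+/+ islets.

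A change of clock phase alone can move the E-box and D-box genes against the Arntl arm. Genes within an arm need not peak at the same hour, so their balance is a description and no test of phase. To describe this balance, the mean of Dbp, Tef, Hlf, Nr1d1, Nr1d2, Per1, Per2, Per3, Ciart and Bhlhe41 was set against that of Arntl, Clock, Cry1 and Nfil3 on each array, Npas2 not being measured. The arms were not set by the promoter windows above. The difference of the means was 0.10, 0.025 and -0.54 in P9.5 Prlr-/- islets, against -0.20, -0.065 and -0.03 in NP Prlr-/- islets. It was 0.195, 0.145 and 0.365 in P9.5 Prlr+/+ islets, against 0.78, 0.50 and 0.05 in NP Prlr+/+ islets. The stages overlapped in both genotypes, so the balance did not separate P9.5 from NP arrays. The Prlr-/- arrays lay below the Prlr+/+ arrays at both stages, by a narrow gap at P9.5 (0.10 against 0.145) and in NP islets (-0.03 against 0.05). The first arm holds the 7 clock genes that were lower in NP Prlr-/- islets at an unadjusted p under 0.05 in limma. The gap in NP islets is therefore not separate from that result.

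Within each arm, some genes separated the stages and others overlapped. In the first arm, Nr1d1 and Per1 were called lower at P9.5 in Prlr+/+ islets, while Dbp (0.13), Per2 (0.13), Per3 (0.20) and Hlf (0.20) had log2 fold changes above 0. In the second arm, Cry1 and Clock separated the stages without overlap in both genotypes, while Arntl and Nfil3 overlapped. Nfil3 had log2 fold changes of -0.17 in Prlr-/- (adjusted p = 0.45) and -0.37 in Prlr+/+ islets (adjusted p = 0.129). With 1 stage of pregnancy, no recorded hour and 3 arrays per group, the phase of the clock was not measured by these data.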

How the data were processed

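Islet RNA of 12 samples was measured on Affymetrix MoGene_1.0_ST arrays, 3 in each of 4 groups taken from the labels. The deposited log2 values are the authors' output of robust multichip analysis in aroma.affymetrix (background correction, quantile normalization, probe summary), and they are rounded to 0.1, which limits small differences. The genome build of the probe sets is not given in the sources used here. Of 35511 probe sets, 21789 carry 1 gene symbol, 1621 several and 12101 none in the annotation table used.

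Group means were fitted to all probe sets in R 4.3.3 with limma 3.58.1 (lmFit and eBayes, no covariate). The 6 contrasts were P9.5 against NP in each genotype and averaged over both, Prlr-/- against Prlr+/+ at each stage, and the interaction. P-values were adjusted by the Benjamini-Hochberg method across the whole array. The calling was also run on simulated arrays with independent noise and few changed probe sets, a setting simpler than these data. Comparing 3 arrays with 3 allows an exact permutation p of no less than 0.10, so no such test is given. Likeness to Dbp was computed over genes with an SD of at least 0.2, naming the 5 highest and 3 lowest. All 10 clock genes are named, Arntl always, and from the other lists every called gene of the clock output, glucocorticoid and immediate early lists. The genes and the lists were chosen with earlier results of these data known. Promoter windows were taken from RefSeq on GRCm38.p6.

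Alternatives were a fit of the compared groups only, a replicate block, leaving out each array, leaving out the dimmest 40% of probe sets, probe sets with a symbol only, median centring, quantile normalization, an intensity trend, array weights and other fold minimums. The raw arrays and the study's other experiments were not analysed here.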

Additional observations from a re-analysis of the deposited data

Results flagged for a closer look

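Cry2 ran in opposite directions between the genotypes at the 2 stages. It was 0.40 higher in Prlr-/- than in Prlr+/+ islets at P9.5, with no overlap of the arrays, and the same difference in NP islets was -0.27, with overlap. In the test of the difference itself, the interaction in limma, it came to 0.67 (standard error 0.232, unadjusted p = 0.0145, adjusted p = 0.385), so the difference did not pass. Leaving out each array in turn gave 0.23 to 0.53 at P9.5 and -0.40 to -0.17 in NP islets.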

How the results depend on the processing

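The calls for clock genes rested in part on the fold minimum. In Prlr-/- islets 1 gene was called between the stages, against 2 with median centring (Cry1 and Clock), 2 with quantile normalization (Cry1 and Nr1d1), 2 with array weights (Cry1 and Dbp), 4 without a fold minimum and 0 at a minimum of 2, and 1 to 2 when each array was left out. In Prlr+/+ islets the 3 called genes compared with 5 without a fold minimum, 1 at a minimum of 2 (Nr1d1) and 3 to 4 when each array was left out. For the mean of the genotypes, 2 compared with 6 and 0 at these minimums and 2 to 3 without each array. Of the 7 genes lower in NP Prlr-/- islets at an unadjusted p under 0.05, the count was 4 to 7 without each array, lowest without Prlr+/+ NP replicate 1.

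Median centring shifted the median of all probe sets by 0.17 in Prlr-/- islets, by 0.067 in Prlr+/+ islets and by 0.12 for their mean, and of the calls over all probe sets 76.2%, 70.2% and 75.8% were then higher at P9.5, against 51.2%, 57.7% and 58.1% as deposited. In NP islets it shifted the median by -0.10 and 69.7% of calls were higher in Prlr-/-, against 91.7%. It turned Per1 between the stages in Prlr-/- islets (0.13), Clock between the genotypes in NP islets (-0.067) and the interaction of Jun (0.033). Array weights turned Cry1 (-0.014) and Nr1d1 (0.11) between the genotypes at P9.5 and Zbtb16 in NP islets (-0.0069), and quantile normalization the interaction of Arntl (-0.028). The cause was not tested.

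Leaving out single arrays turned the sign of small differences. For P9.5 against NP in Prlr-/- islets the ranges were -0.10 to 0.067 for Per1 and -0.05 to 0.35 for Arntl, and in Prlr+/+ islets -0.12 to 0.43 for Dbp, -0.17 to 0.033 for Nr1d2 and -0.05 to 0.30 for Arntl. Between the genotypes at P9.5 they were -0.23 to 0.017 for Tef, -0.083 to 0.067 for Per2 and -0.38 to 0.17 for Jun, and in NP islets -0.15 to 0.30 for Fkbp5, -0.25 to 0.40 for Zbtb16 and -0.12 to 0.033 for Jun. For the interaction they were -0.017 to 0.20 for Per3, -0.18 to 0.22 for Arntl, -0.033 to 0.42 for Fkbp5, -0.13 to 0.52 for Zbtb16 and -0.35 to 0.20 for Jun.

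Whether arrays with the same replicate number share a batch is not given in the sources used here. Of 18 pairs of same-numbered arrays, 7 had deviations with r over 0.1, and 1 of 12 arrays matched its own number best throughout. The 3 deviations of a group sum to 0, so these correlations cannot decide whether the numbers pair the arrays. Fos was highest in replicate 2 of both P9.5 groups. With the replicate block, 1 clock gene was called in Prlr-/- islets, 3 in Prlr+/+ islets, 2 for their mean, 0 in each genotype comparison and 0 for the interaction, and 7 were lower in NP Prlr-/- islets at an unadjusted p under 0.05, as without it. The mean over several probe sets gave no other value, as each gene has 1, and the fit of the compared groups only was not run for the mean and the interaction. The rounding to 0.1 and 3 arrays per group limit what differences could be seen.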
